A study of Arabidopsis thaliana with 12 samples.

Results

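The 10 genes described here encode the ATG1 kinase complex, other core autophagy proteins and the cargo receptor NBR1 of Arabidopsis thaliana. They were chosen by locus code from a table of 19522 genes, and all 10 were in it: ATG1A (AT3G61960), ATG1B (AT3G53930), ATG1C (AT2G37840), ATG13A (AT3G49590), ATG13B (AT3G18770), ATG5 (AT5G17290), ATG6 (AT3G61710), ATG7 (AT5G45900), ATG9 (AT2G31260) and NBR1 (AT4G24690). Messenger RNA was sequenced from whole seedlings aged 4 d that had grown in liquid medium lacking glucose and were then kept for 2 h with 15 mM glucose (+Glc) or with none (−Glc). The 4 groups, each of n = 3 libraries, were ein2-5 +Glc, ein2-5 −Glc, Col-0 +Glc and Col-0 −Glc. Col-0 was the wild type, and ein2-5 carries a mutation of EIN2, a membrane protein of the ethylene pathway, in the Col-0 background. Whether replicate libraries derive from separate cultures is not stated in the labels, and p-values therefore reflect only the scatter among these 12 libraries, some of which may be technical.

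Autophagy encloses portions of a cell in a double membrane, the autophagosome, and delivers them to the vacuole, where the contents are broken down and reused. The ATG1 kinase with its regulatory subunit ATG13 starts the process, a lipid kinase complex that holds ATG6 marks the forming membrane, ATG9 vesicles supply it with lipid, and a ubiquitin-like conjugation system with ATG7 and ATG5 attaches ATG8 proteins to it. Carbon shortage is a classical trigger of autophagy in plants, and the TOR and SnRK1 kinases, which sense nutrient and energy supply, act on the ATG1 complex.

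Promoter windows of 300 bases upstream of the annotated gene start were read from the RefSeq assembly TAIR10.1, and 3 are printed on the strand of the gene. The window of NBR1, at chr4:12740732-12741031 on the plus strand, is shown since NBR1 had the most transcript and the most motif matches. The windows of ATG13A, at chr3:18377109-18377408 on the plus strand, and of ATG13B, at chr3:6463102-6463401 on the minus strand, are shown since of this pair of paralogs ATG13A passed the test of the glucose response in both genotypes and ATG13B in neither. Capitals mark matches to a searched motif.
NBR1: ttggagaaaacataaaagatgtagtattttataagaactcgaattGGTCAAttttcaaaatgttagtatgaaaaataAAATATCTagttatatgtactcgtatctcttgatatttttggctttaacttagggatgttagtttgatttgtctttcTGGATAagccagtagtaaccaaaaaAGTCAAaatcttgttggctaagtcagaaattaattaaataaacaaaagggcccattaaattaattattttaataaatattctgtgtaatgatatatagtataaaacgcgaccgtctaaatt
ATG13A: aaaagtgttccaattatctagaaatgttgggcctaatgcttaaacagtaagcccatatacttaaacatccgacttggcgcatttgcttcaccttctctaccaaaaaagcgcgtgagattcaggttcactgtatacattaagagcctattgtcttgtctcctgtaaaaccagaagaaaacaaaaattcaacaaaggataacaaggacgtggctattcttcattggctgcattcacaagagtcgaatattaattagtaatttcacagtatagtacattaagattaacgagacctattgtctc
ATG13B: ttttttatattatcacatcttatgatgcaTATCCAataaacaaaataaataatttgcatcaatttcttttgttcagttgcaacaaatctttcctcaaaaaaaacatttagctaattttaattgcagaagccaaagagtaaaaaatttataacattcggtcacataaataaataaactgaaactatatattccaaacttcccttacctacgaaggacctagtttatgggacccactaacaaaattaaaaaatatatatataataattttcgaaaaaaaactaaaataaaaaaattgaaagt
Each motif was searched on both strands. The W-box (TTGACC or TTGACT), a WRKY binding motif, was in the windows of ATG5 and NBR1, and in 32.3% of the 27443 promoters of the assembly. The TATCCA element, known from sugar-repressed promoters, was in those of ATG1C, ATG13B, ATG7 and NBR1, and in 16.2% of all. The evening element AAATATCT of clock-controlled genes was in those of ATG1A and NBR1, and in 5.64% of all. The G-box CACGTG was in the window of ATG6 and in 7.09% of all promoters. The C-box GACGTC (2.61% of all), the telo-box AAACCCTA (5.21%) and an EIN3-type site given as ATGTATCT, ATGTACCT, ATGCATCT or ATGCACCT (3.24%) were in none of the 10 windows. In NBR1 the marked letters are a W-box from 255 to 250 bases upstream of the gene start, an evening element from 223 to 216, a TATCCA element from 146 to 141 and another W-box from 121 to 116. The W-boxes and the TATCCA element of NBR1 read on the opposite strand, so their reverse complements are printed. The mark in ATG13B is a TATCCA from 271 to 266 bases upstream, and ATG13A held no match.

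The libraries held between 11470134 and 17461274 reads over the table, and the lowest member value rested on 29 reads, in ATG13B. EIN2 was lower in ein2-5 than in Col-0, with log2 differences of −1.18 with glucose and −1.27 without. Seed storage and oil body genes, 11 markers in all, had summed levels of 141 to 3375 CPM in ein2-5 +Glc, 764 to 1320 CPM in ein2-5 −Glc, 1.67 to 3.33 CPM in Col-0 +Glc and 1.72 to 157 CPM in Col-0 −Glc. The libraries ein2-5 +Glc 2 and 3 and Col-0 −Glc 1 held far more of these reads than the other libraries of their groups and are called seed-rich below. The name is relative to the group, since every ein2-5 −Glc library held more than the 157 CPM of Col-0 −Glc 1. Leaving them out keeps ein2-5 at 141 CPM with glucose against 764 to 1320 CPM without, so it does not even out the seed markers. The 6 green tissue markers were abundant in every group, with summed values of 20193 to 26250 CPM in ein2-5 +Glc, 23566 to 32099 CPM in ein2-5 −Glc, 30426 to 32583 CPM in Col-0 +Glc and 35507 to 38960 CPM in Col-0 −Glc. These sums were lower with glucose than without in Col-0, with no overlap, and their part in the glucose responses below was not tested.

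Levels are given in CPM, reads per 1000000 of a library, as mean ± SD over n = 3 libraries. Per kilobase of exon, NBR1 had by far the most transcript, at 67.1 ± 2.21 CPM per kb in ein2-5 +Glc, 91.6 ± 6.45 in ein2-5 −Glc, 64.0 ± 1.90 in Col-0 +Glc and 101 ± 2.67 in Col-0 −Glc. No other member exceeded 14.1 CPM per kb in any library. ATG13B was the lowest member in every group mean, with 1.43 ± 0.349 CPM per kb in ein2-5 +Glc, 1.91 ± 0.305 in ein2-5 −Glc, 2.22 ± 0.132 in Col-0 +Glc and 2.17 ± 0.283 in Col-0 −Glc. ATG5 had 3.07 ± 0.169 CPM per kb in ein2-5 +Glc and 2.90 ± 0.385 in Col-0 +Glc and was the lowest but for ATG13B in both, against 6.75 ± 0.890 in ein2-5 −Glc and 9.87 ± 0.769 in Col-0 −Glc. In Col-0 −Glc the genes ATG5, ATG1A and ATG1C lay within each other's spread, as did ATG6 and ATG13A above them and ATG1B, ATG7 and ATG9 below them.

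**Figure D1:**
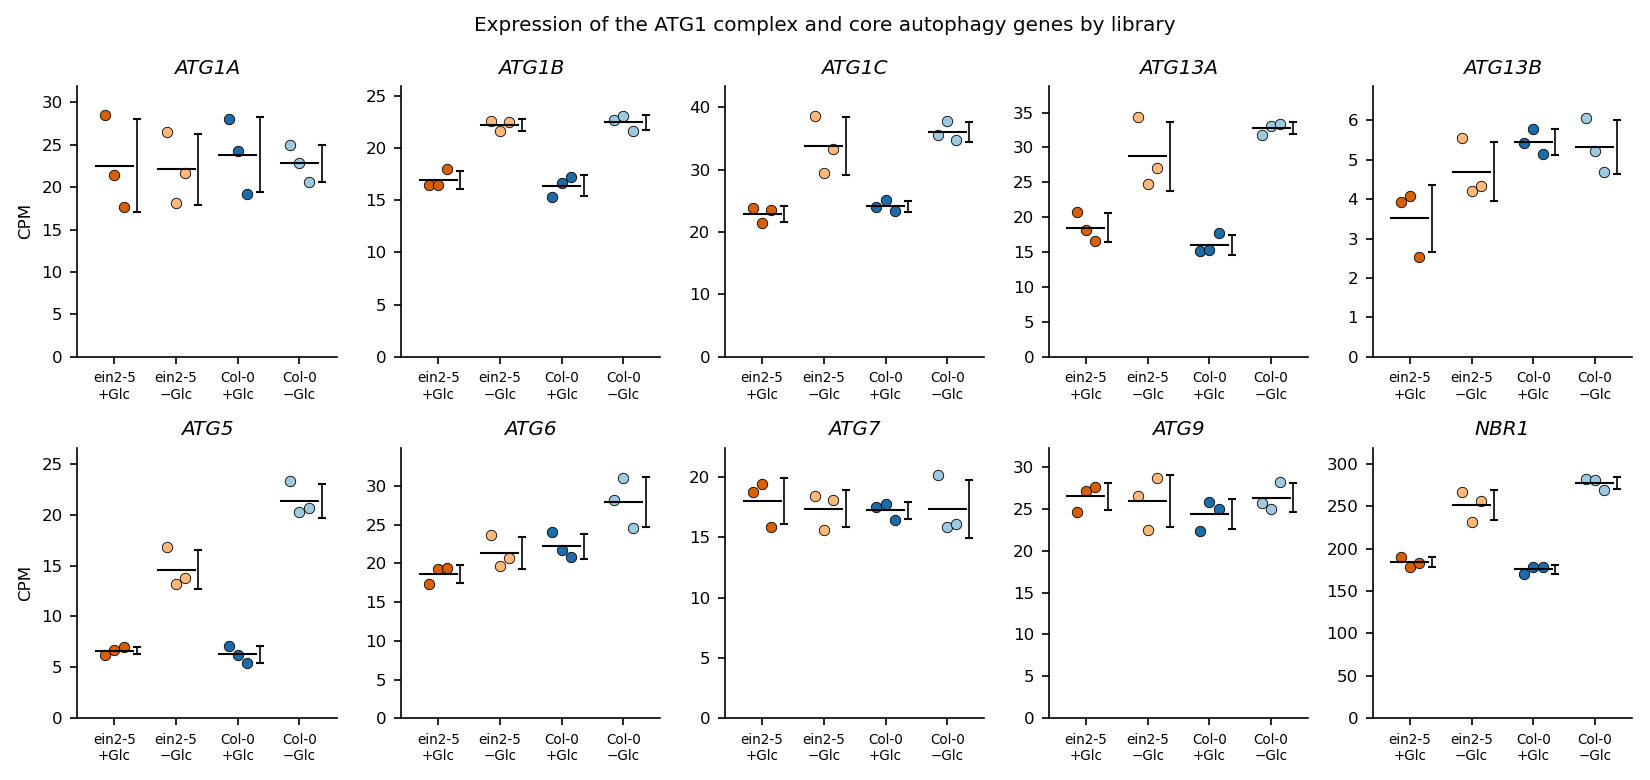
CPM of the 10 genes (y axis, a separate scale from 0 for each gene) in the 4 groups (x axis), with 1 point per library, a line at the mean and a bar of ± 1 SD beside it (n = 3). The +Glc points lie below the −Glc points of the same genotype without overlap for ATG1B, ATG1C, ATG13A, ATG5, ATG6 and NBR1. ATG13B is apart in ein2-5 only, narrowly, as is ATG6 in both genotypes, whereas ATG1A, ATG7 and ATG9 overlap in both. How many of all genes stood apart in this way was not counted.

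Glucose was compared with none in each genotype, which asks what a sugar supply changes in seedlings grown without it. In Col-0 6 of the 10 genes fell and none rose in limma, at an adjusted p under 0.05 over all 19522 genes. Of all genes 19.7% fell and 40.6% rose in the same test. In ein2-5 5 of the 10 fell and none rose, where 16.4% of all genes fell and 26.5% rose. The median log2 difference of the 10 was −0.37 in Col-0, where that of all genes was 0.19, and −0.36 in ein2-5, where that of all genes was 0.09. Differences are on the log2(CPM + 1) scale, ± SE, which understates the change of low genes.

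The 3 ATG1 paralogs, the protein kinases at the head of the pathway, did not move alike. ATG1C had 23.8, 21.4 and 23.5 CPM in ein2-5 +Glc, against 38.6, 29.5 and 33.3 CPM in ein2-5 −Glc. In Col-0 ATG1C had 23.99, 25.1 and 23.3 CPM with glucose, against 35.5, 37.9 and 34.8 CPM without. In both genotypes every library with glucose lay below every library without. The log2 difference of ATG1C was −0.53 ± 0.0964 in ein2-5 (limma adjusted p = 7.46e-04) and −0.56 ± 0.0964 in Col-0 (limma adjusted p = 2.20e-04).

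ATG1B had 16.5, 16.4 and 18.0 CPM in ein2-5 +Glc, against 22.6, 21.6 and 22.5 CPM in ein2-5 −Glc. In Col-0 it had 15.3, 16.6 and 17.2 CPM with glucose, against 22.6, 23.1 and 21.7 CPM without. Its groups were likewise apart, and the 2 genotypes had much the same values in each condition. The log2 difference of ATG1B was −0.37 ± 0.0809 in ein2-5 (limma adjusted p = 0.0026) and −0.43 ± 0.0809 in Col-0 (limma adjusted p = 4.26e-04).

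ATG1A had 28.5, 21.5 and 17.7 CPM in ein2-5 +Glc, against 26.5, 18.2 and 21.6 CPM in ein2-5 −Glc. In Col-0 it had 28.0, 24.2 and 19.2 CPM with glucose, against 24.997, 22.9 and 20.6 CPM without. The groups overlapped throughout, and ATG1A had the widest spread between libraries of the 3 kinase genes in each +Glc group. Its log2 difference was 0.02 in ein2-5 (95% interval −0.37 to 0.40, limma adjusted p = 0.949) and 0.05 in Col-0 (95% interval −0.34 to 0.43, limma adjusted p = 0.833). A change of ATG1A smaller than these intervals was not detectable at this spread. Library 1 had the highest value in each of the 4 groups, and the intervals come from the fit without a replicate block. With the block ATG1A passed in neither genotype.

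The make-up of ATG1 transcript, per kilobase of exon, moved with these values. ATG1A made up 44.2 ± 6.22% of it in ein2-5 +Glc and 35.8 ± 2.32% in ein2-5 −Glc, and 45.3 ± 5.12% in Col-0 +Glc and 35.7 ± 2.01% in Col-0 −Glc. The share of ATG1C was 30.7 ± 2.85% in ein2-5 +Glc and 37.1 ± 0.411% in ein2-5 −Glc, and 31.2 ± 1.96% in Col-0 +Glc and 38.1 ± 1.48% in Col-0 −Glc. The shares of ATG1C with glucose lay below those without in every library of the same genotype. These shares are a description without a test, and how reads that match several paralogs were counted is not given in the sources used here.

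**Figure D2:**
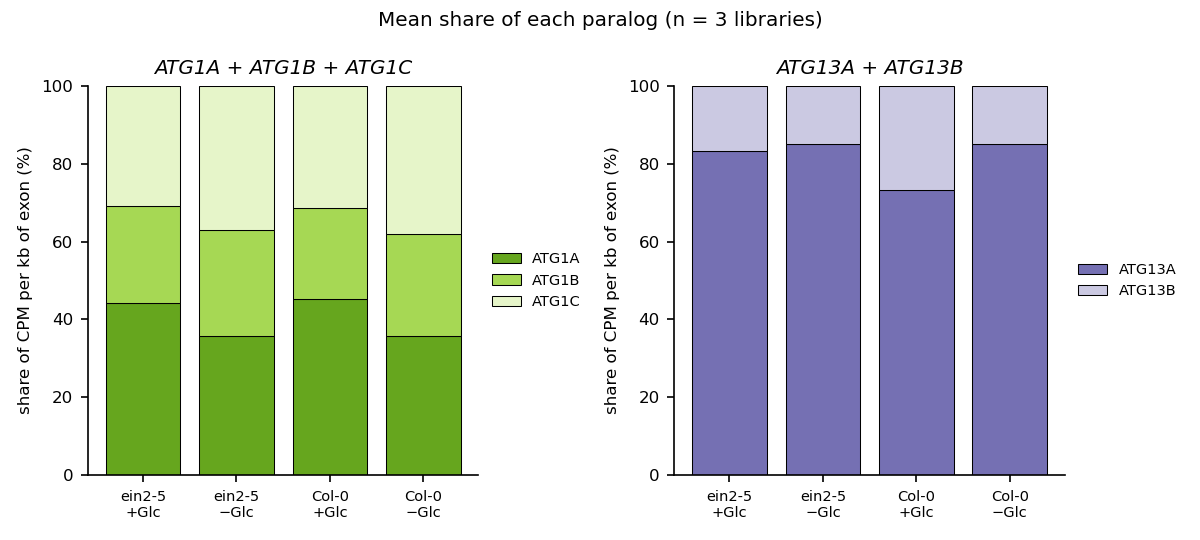
Mean share (y axis, percent of CPM per kb of exon) of each paralog in the ATG1 transcript (left, ATG1A, ATG1B and ATG1C) and in the ATG13 transcript (right, ATG13A and ATG13B) in the 4 groups (n = 3 libraries). ATG1A takes a larger share with glucose in both genotypes, and ATG13B stands out in Col-0 +Glc, at 26.7%.

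ATG13A and ATG13B encode the regulatory subunit of the kinase. ATG13A had the higher level per kb in every group and fell in both genotypes, whereas ATG13B passed in neither, and the 2 responses were not tested against each other. ATG13A had 20.7, 18.2 and 16.7 CPM in ein2-5 +Glc, against 34.3, 24.8 and 27.0 CPM in ein2-5 −Glc. In Col-0 ATG13A had 15.2, 15.3 and 17.7 CPM with glucose, against 31.9, 33.0 and 33.4 CPM without. No library with glucose reached one without, and in Col-0 the mean with glucose was 49.0% of that without. The log2 difference of ATG13A was −0.60 ± 0.119 in ein2-5 (limma adjusted p = 0.00144) and −0.99 ± 0.119 in Col-0 (limma adjusted p = 9.21e-06). Without the 3 seed-rich libraries the difference in ein2-5 was −0.44 (limma adjusted p = 0.0886), in a fit that kept a single ein2-5 +Glc library and took its spread from the other groups.

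ATG13B had 3.93, 4.09 and 2.53 CPM in ein2-5 +Glc, against 5.56, 4.20 and 4.33 CPM in ein2-5 −Glc. In Col-0 it had 5.42, 5.79 and 5.15 CPM with glucose, against 6.07, 5.21 and 4.70 CPM without. The groups overlapped in Col-0 and stood narrowly apart in ein2-5. Neither response passed: the log2 difference was −0.35 ± 0.156 in ein2-5 (limma adjusted p = 0.0901) and 0.03 ± 0.156 in Col-0 (limma adjusted p = 0.868). ATG13B thus made up 16.7 ± 2.71% of ATG13 transcript per kb in ein2-5 +Glc and 14.9 ± 0.377% in ein2-5 −Glc, and 26.7 ± 2.68% in Col-0 +Glc and 14.8 ± 1.95% in Col-0 −Glc. The printed windows differ as well, with a TATCCA element in ATG13B and none in ATG13A, which is a description of the letters and not of a bound site.

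ATG5, which joins ATG12 to form the conjugate that helps attach ATG8 to lipid, had the largest fall of the 10 in both genotypes. It had 6.26, 6.73 and 6.97 CPM in ein2-5 +Glc, against 16.8, 13.2 and 13.8 CPM in ein2-5 −Glc. In Col-0 it had 7.14, 6.22 and 5.48 CPM with glucose, against 23.3, 20.2 and 20.6 CPM without. The +Glc libraries of both genotypes fell in 1 narrow range, and the −Glc libraries of Col-0 lay above all those of ein2-5. The log2 difference of ATG5 was −1.02 ± 0.118 in ein2-5 (limma adjusted p = 2.91e-05) and −1.62 ± 0.118 in Col-0 (limma adjusted p = 9.94e-08). The mean with glucose was 45.6% of that without in ein2-5 and 29.4% in Col-0.

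ATG5 lies on chromosome 5 from 5686135 to 5689947 on the minus strand (TAIR10.1), and 597 of its 2165 exon bases, 27.6%, are shared with AT5G17280 on the opposite strand, which RefSeq describes as an oxidoreductase-like protein. All 597 exon bases of AT5G17280 lie within exons of ATG5. The strand setting of the counting is not given in the sources used here, so whether reads from the shared bases were kept apart between the 2 genes is not known. AT5G17280 averaged 18.1 ± 0.512 CPM in ein2-5 +Glc and 26.0 ± 2.01 CPM in ein2-5 −Glc, and 18.2 ± 0.825 CPM in Col-0 +Glc and 38.9 ± 1.51 CPM in Col-0 −Glc. Its log2 difference was −0.50 ± 0.0814 in ein2-5 (limma adjusted p = 3.71e-04) and −1.06 ± 0.0814 in Col-0 (limma adjusted p = 1.56e-07). NBR1 shares 101 bases, 3.68% of its exons, with AT4G24700, which averaged between 1.88 and 3.61 CPM, and ATG9 shares 184 bases, 5.22%, with AT2G31265, which is not analysed here.

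NBR1, the receptor that binds ubiquitinated cargo and ATG8, fell in both genotypes with little spread between libraries. It had 191, 179 and 183 CPM in ein2-5 +Glc, against 266, 232 and 256 CPM in ein2-5 −Glc. In Col-0 NBR1 had 169.5, 179 and 178 CPM with glucose, against 282, 281 and 269 CPM without. The groups were far apart, and the Col-0 −Glc libraries all exceeded the ein2-5 −Glc libraries, by a little. The log2 difference was −0.45 ± 0.0773 in ein2-5 (limma adjusted p = 5.64e-04) and −0.66 ± 0.0773 in Col-0 (limma adjusted p = 7.63e-06).

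ATG6, the Beclin homolog of the lipid kinase complex, fell in Col-0 by a small amount. It had 17.4, 19.3 and 19.4 CPM in ein2-5 +Glc, against 23.7, 19.7 and 20.7 CPM in ein2-5 −Glc. In Col-0 ATG6 had 24.05, 21.7 and 20.8 CPM with glucose, against 28.1, 31.0 and 24.6 CPM without. The groups of each genotype touched closely without overlap. The log2 difference was −0.18 ± 0.105 in ein2-5 (limma adjusted p = 0.190) and −0.31 ± 0.105 in Col-0 (limma adjusted p = 0.0196). The call in Col-0 did not hold without Col-0 −Glc 1 (limma adjusted p = 0.0520), Col-0 −Glc 2 (0.1001), Col-0 +Glc 2 (0.0581) or Col-0 +Glc 3 (0.0689), nor without the seed-rich libraries (0.0576).

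ATG7, the E1-like enzyme that activates ATG8 and ATG12, averaged 18.0 ± 1.90 CPM in ein2-5 +Glc and 17.4 ± 1.55 CPM in ein2-5 −Glc, and 17.2 ± 0.689 CPM in Col-0 +Glc and 17.4 ± 2.40 CPM in Col-0 −Glc. Its log2 difference was 0.05 in ein2-5 (95% interval −0.20 to 0.29) and −0.00 in Col-0 (95% interval −0.25 to 0.24). ATG9, the membrane protein of the lipid-carrying vesicles, averaged 26.5 ± 1.60 CPM in ein2-5 +Glc and 25.9 ± 3.13 CPM in ein2-5 −Glc, and 24.4 ± 1.84 CPM in Col-0 +Glc and 26.3 ± 1.69 CPM in Col-0 −Glc. Its log2 difference was 0.04 in ein2-5 (95% interval −0.18 to 0.25) and −0.11 in Col-0 (95% interval −0.32 to 0.11). The groups of both genes overlapped in both genotypes, and neither gene passed in either.

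**Figure D3:**
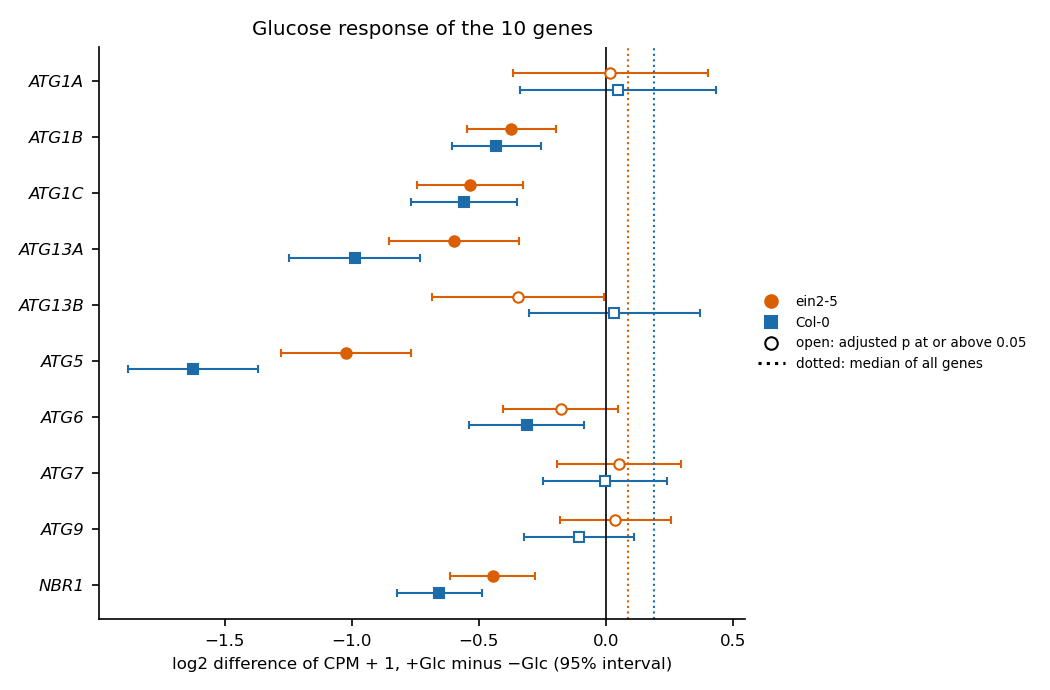
Log2 difference of CPM + 1, +Glc minus −Glc (x axis), of the 10 genes (rows) in ein2-5 (circles) and Col-0 (squares), with 95% intervals from limma. Filled marks passed an adjusted p under 0.05, and dotted lines give the median of all genes, 0.09 in ein2-5 and 0.19 in Col-0. ATG5 lies furthest to the left, at −1.02 in ein2-5 and −1.62 in Col-0.

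The scaling of the libraries bears on the small differences. TMM, which rescales libraries on the assumption that most genes do not change, gave the Col-0 −Glc libraries factors between 0.888 and 0.922 and all other libraries factors between 0.977 and 1.08. It brought the median of all genes in Col-0 to 0.01, where it was 0.19 as deposited. Relative to that median of 0.19, the Col-0 differences were −1.81 for ATG5, −1.18 for ATG13A, −0.84 for NBR1, −0.75 for ATG1C, −0.62 for ATG1B and −0.50 for ATG6. After TMM scaling 7 members fell in Col-0, with ATG9 added at −0.31 (limma adjusted p = 0.0168), and 6 in ein2-5, with ATG13B added at −0.39 (limma adjusted p = 0.0414). Of all genes 29.9% fell in Col-0 and 20.3% in ein2-5 under the same scaling. ATG1A and ATG13B in Col-0 and ATG1A, ATG7 and ATG9 in ein2-5 changed sign under TMM without passing.

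**Figure D4:**
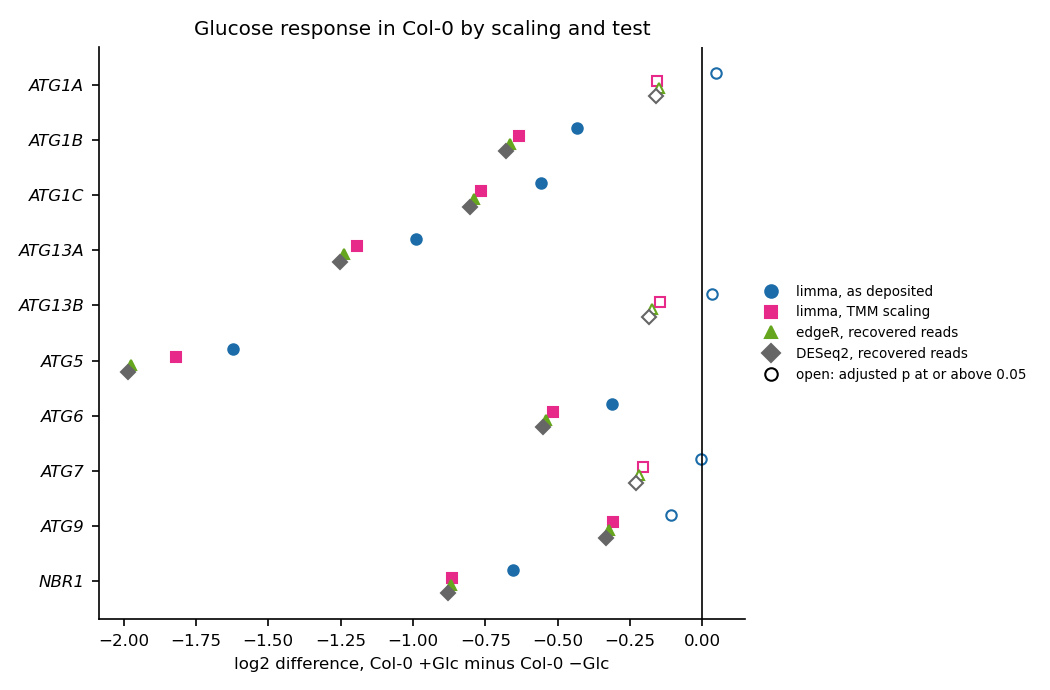
Log2 difference between Col-0 +Glc and Col-0 −Glc (x axis) of the 10 genes (rows) under 4 ways of scaling and testing. Filled marks passed an adjusted p under 0.05. The 6 genes that fell as deposited passed under all 4, and ATG9 passed under the other 3 only, with −0.11 as deposited and −0.31 after TMM scaling.

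ein2-5 was compared with Col-0 in each condition, which asks whether the 10 genes stand differently in the mutant. With glucose 1 of the 10, ATG13B, was lower in ein2-5 and none was higher, where 20.9% of all genes were lower and 26.1% higher. Without glucose ATG5 and ATG6 were lower and none was higher, where 16.0% of all genes were lower and 35.3% higher. As deposited, the shares of members called were thus near or below those of all genes.

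With glucose, ATG13B had 3.93, 4.09 and 2.53 CPM in ein2-5, against 5.42, 5.79 and 5.15 CPM in Col-0, and the groups did not overlap. Its log2 difference was −0.53 ± 0.156 (limma adjusted p = 0.0134). The call rested on ein2-5 +Glc 3, without which the difference was −0.36 (limma adjusted p = 0.0633). Without the seed-rich libraries, with a single ein2-5 +Glc library left, the difference was −0.39. ATG6 with glucose had a log2 difference of −0.24 ± 0.105 (limma adjusted p = 0.0813).

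Without glucose, the log2 difference of ATG5 was −0.52 ± 0.118 (limma adjusted p = 0.00256), with 68.3% of the Col-0 mean in ein2-5. That of ATG6 was −0.37 ± 0.105 (limma adjusted p = 0.0101), and it did not pass without Col-0 −Glc 2 (−0.29, limma adjusted p = 0.0574). ATG13A stood at −0.20 ± 0.119 (limma adjusted p = 0.181), NBR1 at −0.14 ± 0.0773 (limma adjusted p = 0.138) and ATG1C at −0.10 ± 0.0964 (limma adjusted p = 0.418). After TMM scaling these 3 passed as well, at −0.36, −0.31 and −0.27, so that 5 of the 10 were lower in ein2-5 −Glc, where 27.3% of all genes were lower after TMM scaling. With glucose 2 of the 10, ATG13B and ATG6, were lower after TMM scaling, where 24.0% of all genes were.

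Tissue markers moved with the genotype. The summed green tissue markers were lower in ein2-5 than in Col-0 in each condition, with no overlap between the libraries. All 11 seed markers and 6 of 7 root markers were higher in ein2-5 in both conditions, with summed root marker levels of 4806 to 5752 CPM in ein2-5 +Glc and 4703 to 5065 CPM in ein2-5 −Glc, against 1634 to 1844 CPM in Col-0 +Glc and 1563 to 1862 CPM in Col-0 −Glc. Of the root markers none was at 0 in all libraries of a group, and of the seed markers 1 was, in Col-0 +Glc. In whole seedlings fewer cells of a type and less RNA per cell cannot be told apart, and the part of tissue make-up in these genotype differences was not tested.

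**Figure D5:**
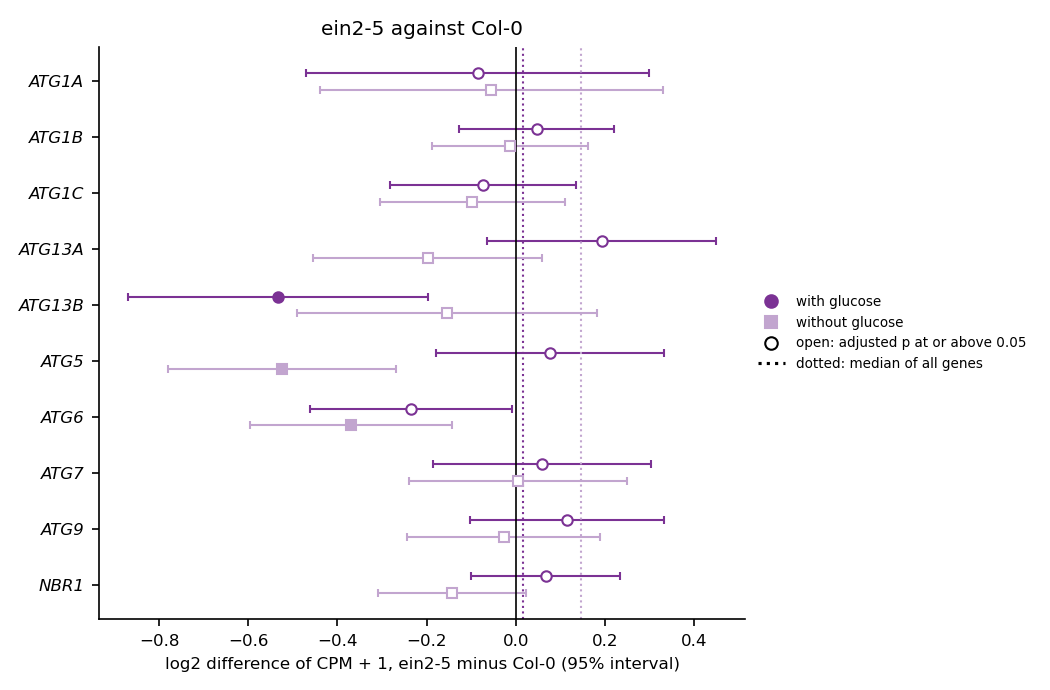
Log2 difference of CPM + 1, ein2-5 minus Col-0 (x axis), of the 10 genes (rows) with glucose (circles) and without (squares), with 95% intervals from limma. Filled marks passed an adjusted p under 0.05: ATG13B with glucose, at −0.53, and ATG5 and ATG6 without, at −0.52 and −0.37.

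The glucose response in ein2-5 was then set against that in Col-0 as a contrast of its own, the Col-0 response subtracted from the ein2-5 response. In it a positive value for a gene that fell means a smaller fall in ein2-5. ATG5 was the only one of the 10 to pass, with 0.60 ± 0.168 (95% interval 0.24 to 0.96, limma adjusted p = 0.0243), where 5.49% of all genes had a positive difference that passed and 13.3% a negative one. This contrast uses the same −Glc libraries as the genotype comparison, and the values of ATG5 above show that its genotypes stood apart without glucose and overlapped with it. The call of ATG5 was close to the threshold. It did not hold without Col-0 −Glc 1, Col-0 +Glc 2, Col-0 +Glc 3, ein2-5 −Glc 2, ein2-5 −Glc 3 or ein2-5 +Glc 3, each left out alone, with 0.52 to 0.70 and adjusted p between 0.0123 and 0.0594 over all 12 such fits. Without the seed-rich libraries, in a fit with a single ein2-5 +Glc library, it was 0.46. Over all 21 alternatives, these fits included, the difference of ATG5 lay between 0.46 and 0.78, and 14 passed. The overlapping gene AT5G17280 had a difference of 0.56 ± 0.115 (limma adjusted p = 0.00513). All its exon bases lie in ATG5 exons, and with the strand setting not given, whether that value is separate from ATG5 reads is not known.

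ATG13A had a difference of 0.39 ± 0.168 (limma adjusted p = 0.126) and NBR1 of 0.21 ± 0.109 (limma adjusted p = 0.207), and both passed after TMM scaling, at 0.54 and 0.36, which made 3 of the 10 where 9.59% of all genes had a positive difference that passed. ATG13B had −0.38 ± 0.220 (limma adjusted p = 0.261). The kinases ATG1A, ATG1B and ATG1C stood at −0.03, 0.06 and 0.02, with 95% intervals of −0.57 to 0.51, −0.19 to 0.31 and −0.27 to 0.32. The intervals of ATG6 (−0.19 to 0.46), ATG7 (−0.29 to 0.40) and ATG9 (−0.16 to 0.45) also covered 0. These intervals do not show that the 2 genotypes responded alike.

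The other genes of the pathway, a list of 43 of which 42 were in the table, show where the 10 sit in it. In Col-0 24 of the 42 fell and 2 rose, with a median of −0.35, and in ein2-5 19 fell and 2 rose. Of all genes 19.7% fell and 40.6% rose in Col-0, and 16.4% fell and 26.5% rose in ein2-5. All 3 partners of the ATG1 complex fell in both genotypes. ATG1T, a truncated ATG1 kinase, averaged 6.44 ± 1.12 CPM in ein2-5 +Glc and 14.4 ± 2.20 CPM in ein2-5 −Glc, and 4.51 ± 0.248 CPM in Col-0 +Glc and 19.3 ± 1.08 CPM in Col-0 −Glc. Its log2 difference was −1.05 ± 0.131 in ein2-5 (limma adjusted p = 5.26e-05) and −1.88 ± 0.131 in Col-0 (limma adjusted p = 6.88e-08), larger in size than the values of the 3 full-length ATG1 genes. The scaffold ATG11 had −0.51 ± 0.0796 in ein2-5 and −0.66 ± 0.0796 in Col-0, and ATG101, which binds ATG13, had −0.58 ± 0.0918 in ein2-5 and −0.56 ± 0.0918 in Col-0.

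In the lipid kinase complex, to which ATG6 belongs, 3 of 5 genes fell in each genotype. VPS15, its regulatory subunit, had −0.35 ± 0.0895 in ein2-5 (limma adjusted p = 0.00686) and −0.67 ± 0.0895 in Col-0 (limma adjusted p = 2.47e-05), and the catalytic subunit VPS34 had −0.25 ± 0.0926 in ein2-5 (limma adjusted p = 0.0468) and −0.38 ± 0.0926 in Col-0 (limma adjusted p = 0.00311). The call of VPS34 in ein2-5 held only when ein2-5 −Glc 2 or ein2-5 +Glc 1 was the library left out. Among 8 genes of ATG9 cycling and lipid transfer 2 fell in ein2-5 and 3 in Col-0, with the lipid transfer protein ATG2 at −0.46 ± 0.0909 in ein2-5 and −0.87 ± 0.0909 in Col-0 and its partner family member ATG18G at −0.65 ± 0.102 in ein2-5 and −0.82 ± 0.102 in Col-0. Of 7 conjugation enzymes 2 fell in ein2-5 and 6 in Col-0, with ATG12A, the partner of ATG5, at −0.44 ± 0.128 in ein2-5 and −0.70 ± 0.128 in Col-0. ATG12A did not pass in ein2-5 without ein2-5 −Glc 1 (limma adjusted p = 0.0509) or without ein2-5 +Glc 3 (0.0632). Without the seed-rich libraries, with a single ein2-5 +Glc library left, ATG12A had −0.33 in ein2-5. The protease gene ATG4A, whose product trims ATG8, had −0.24 ± 0.0931 in ein2-5 (limma adjusted p = 0.0570) and −0.67 ± 0.0931 in Col-0 (limma adjusted p = 3.19e-05).

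Of the 9 ATG8 genes, whose products are anchored in the membrane, 7 fell in each genotype. ATG8E averaged 17.7 ± 1.98 CPM in ein2-5 +Glc and 102 ± 11.7 CPM in ein2-5 −Glc, and 15.6 ± 5.83 CPM in Col-0 +Glc and 163 ± 2.85 CPM in Col-0 −Glc. ATG8F averaged 30.0 ± 2.84 CPM in ein2-5 +Glc and 82.6 ± 14.4 CPM in ein2-5 −Glc, and 18.5 ± 2.04 CPM in Col-0 +Glc and 106 ± 1.97 CPM in Col-0 −Glc. Of 10 other receptors and adaptors 2 fell and 2 rose in each genotype, near the share of all genes that fell and below the share that rose. ATI1, an ATG8-binding protein, had −0.62 ± 0.0794 in ein2-5 and −0.84 ± 0.0794 in Col-0. The proteasome subunit and receptor RPN10 had 0.44 ± 0.0731 in ein2-5 (limma adjusted p = 4.13e-04) and 0.51 ± 0.0731 in Col-0 (limma adjusted p = 4.74e-05). Among 6 genes of the TOR complex and SnRK1, the SnRK1 kinase subunit KIN11 fell in both genotypes, with −0.66 ± 0.0828 in ein2-5 and −0.79 ± 0.0828 in Col-0, and RAPTOR1A (AT5G01770), a TOR partner, rose by 0.51 ± 0.0965 in ein2-5 and by 1.21 ± 0.0965 in Col-0.

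In the genotype comparison with glucose, 8 of these 42 genes were lower in ein2-5 and 6 higher, where 20.9% of all genes were lower and 26.1% higher. Without glucose 17 were lower and 3 higher, where 16.0% of all genes were lower and 35.3% higher. In the difference of the responses 7 were positive, where 5.49% of all genes were, among them ATG1T at 0.82 ± 0.186 (limma adjusted p = 0.00849), and the lipid-binding ATG18B was negative, at −0.48 ± 0.158 (limma adjusted p = 0.0493), where 13.3% of all genes were. The call of ATG18B was lost after TMM scaling (limma adjusted p = 0.196).

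The gene with the strongest response averaged over both genotypes, ATG5, was compared with 6948 genes that had a symbol and a mean of at least 5 CPM, by the root mean square of the difference in centred log2 values over the 12 libraries. The nearest was GBF1 (AT4G36730), a G-box binding factor, at 0.106, followed by the v-SNARE gene VTI1B at 0.115, SSP4b at 0.133, PIRL5 at 0.134 and CBSX3 at 0.141, against a median of 0.809 over all genes searched. GBF1 averaged 19.4 CPM in ein2-5 +Glc and 38.2 CPM in ein2-5 −Glc, and 16.2 CPM in Col-0 +Glc and 49.8 CPM in Col-0 −Glc. Of the other members ATG13A was nearest to ATG5, at 0.331, and ATG1A farthest, at 0.722. The libraries share their groups, so this likeness describes a pattern over 4 groups and no more.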

How the data were processed

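Per the submitters' processing notes the authors used TopHat, HTSeq and the TAIR10 genome, with versions and strand setting not given in the sources used here. The deposited table holds CPM for 12 libraries, a unit read from the values, of which 100.0% of 234264 were whole reads within 0.01 of a read. A floor of 3 reads equals 0.172 to 0.262 CPM. log2(CPM + 1) was fitted for all 19522 genes and 12 libraries with limma-trend (limma 3.58.1, R 4.3.3; 4 group means, 8 residual degrees of freedom), with Benjamini-Hochberg adjustment over all genes and a threshold of 0.05. The limma test of the Col-0 glucose response was tried on simulated data with far fewer changed genes than were called here. That trial therefore does not cover a shift of this extent. The plan named limma for CPM and edgeR only for a table of raw counts, and limma was used since the values are CPM. As alternatives edgeR 4.0.16 and DESeq2 1.42.0 were run on the recovered reads. Other alternatives were TMM scaling, pseudocounts of 0.25 and 4, a mean of at least 5 CPM, fits of only the groups compared, a replicate block, each library left out, no seed-rich libraries and no seed markers. The labels number the libraries from 1 to 3 in each group. Same-numbered libraries of ein2-5 +Glc and ein2-5 −Glc deviated together, with r of 0.611, 0.151 and 0.453, a hint from the data, whereas those of Col-0 did not all do so (0.176, −0.110 and 0.413). Members and gene lists were chosen with earlier results of these data known. Named were all 10 members, up to 2 genes per pathway list with the largest called response in Col-0, and the 5 nearest to the member with the strongest response; ATG101, ATG18B, ATG4B and ATG8H were named after their values were seen. Groups were taken from the sample titles, since the treatment field names glucose for all samples. Exon lengths, overlaps, names and promoters came from TAIR10.1, in which 19352 of the 19522 loci were found. Whether the authors counted reads on the same gene models was not checked, which bears on the overlaps and on the values per kb.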

Additional observations from a re-analysis of the deposited data

Results flagged for a closer look

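Among the 10 genes, the 42 other autophagy genes, the 6 TOR and SnRK1 genes and the neighbours that overlap members, 11 had a glucose response that differed between the genotypes in the test of the difference itself (ein2-5 minus Col-0, log2, limma adjusted p under 0.05). Of all 19522 genes 3678 passed in the same test, 5.49% with a positive difference and 13.3% with a negative one. The count of 11 is thus a description and not a trait of these genes. The difference was 0.60 for ATG5, 0.56 for AT5G17280, whose exon lies within ATG5 exons, 0.82 for ATG1T, 0.41 for ATG2, 0.44 for ATG4A, 0.89 for ATG8E, 1.04 for ATG8F and 0.96 for ATG8H. These 8 had a lower value with glucose in both genotypes, and the smaller response in ein2-5. ATG4B had 0.43, with a response of 0.14 in ein2-5, which did not pass, and −0.29 in Col-0, which did. ATG18B had −0.48, with −0.23 in ein2-5 and 0.26 in Col-0, neither of which passed, and its call was lost in most alternatives. RAPTOR1A, which rose in both, had −0.70, with the smaller response in ein2-5. Without the 3 seed-rich libraries ATG8F and ATG8H stayed past the threshold and the other 9 did not, in a fit with a single ein2-5 +Glc library. With 1 library left out, ATG1T, ATG8F, ATG8H, RAPTOR1A and AT5G17280 passed in all 12 fits, whereas ATG5, ATG2, ATG4A, ATG4B, ATG8E and ATG18B each missed the threshold in several. The summed seed markers of the remaining ein2-5 +Glc library were the lowest of the ein2-5 libraries, at 141 CPM, and their part in these differences was not tested.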

How the results depend on the processing

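All 15 calls among the 10 genes kept their direction in the 333 alternatives run on them, and 16 of these alternatives ended a call, each by leaving out libraries. Counts of members called in the 2 glucose responses moved by less than 1.5 times. Without glucose the genotype count was 2 as deposited, against 5 after TMM scaling, in edgeR and in DESeq2. Lower in ein2-5 were 3121 of all 19522 genes as deposited, against 5330 after TMM scaling, 5306 in edgeR and 5167 in DESeq2. With glucose the genotype count was 1, against 2 after TMM scaling and in edgeR, and 0 with a mean of at least 5 CPM, which removes ATG13B. Of all genes 4080 were lower in ein2-5 with glucose as deposited, against 4677 after TMM scaling and 4640 in edgeR. For the difference of the responses it was 1, against 3 after TMM scaling, in edgeR and in DESeq2, and 0 without the seed-rich libraries. With 1 library left out the counts lay between 1 and 3 without glucose, 0 and 1 with glucose, and 0 and 2 for the difference. Of all genes 2362 to 3371 were lower in ein2-5 without glucose in these fits and 2967 to 4484 with glucose. A positive difference that passed was found for 741 to 1541 of all genes. Of 1095 alternatives on the 10 genes 60 changed sign, none past the threshold, by another scaling or by leaving out libraries. ATG1A and ATG13B in Col-0 had −0.16 and −0.15 after TMM scaling, −0.15 and −0.17 in edgeR, and −0.16 and −0.18 in DESeq2. In ein2-5 ATG1A, ATG7 and ATG9 had −0.042, −0.0085 and −0.022 after TMM scaling, −0.026, −0.005 and −0.027 in edgeR, and −0.043, −0.018 and −0.042 in DESeq2. ATG7 between genotypes without glucose had −0.16 after TMM scaling and −0.17 in edgeR and DESeq2, and the difference of the responses of ATG1A was 0.11 after TMM scaling and 0.12 in edgeR and DESeq2. Without the seed-rich libraries ATG7 in Col-0 had 0.10, ATG9 in ein2-5 −0.062, and ATG1A 0.011 between genotypes without glucose, 0.26 with glucose and 0.25 for the difference. The cause of these changes was not tested. With 1 library left out, ATG1A lay between −0.074 and 0.19 in Col-0, −0.16 and 0.17 in ein2-5, −0.19 and 0.072 between genotypes without glucose, −0.26 and 0.068 with glucose, and −0.21 and 0.12 for the difference. ATG7 lay between −0.062 and 0.10 in Col-0, −0.023 and 0.13 in ein2-5, −0.053 and 0.11 between genotypes without glucose, and −0.052 and 0.14 for the difference. ATG9 lay between −0.057 and 0.11 in ein2-5 and −0.10 and 0.066 between genotypes without glucose, ATG1B between −0.038 and 0.0066 there, ATG5 between −0.0039 and 0.16 between genotypes with glucose, ATG13B between −0.04 and 0.12 in Col-0, and ATG1C between −0.068 and 0.12 for the difference.

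The fit with a replicate block gave the same counts of members called as the fit without it, 5 and 6 for the glucose responses in ein2-5 and Col-0, 1 and 2 between genotypes with and without glucose, and 1 for the difference. Of all genes 3518 fell in ein2-5 and 4036 in Col-0 with the block, and 1248 had a positive difference that passed. Lower in ein2-5 were 4452 of all genes with glucose and 3397 without. A block within the ein2-5 libraries, chosen after seeing the data, also gave 5 members in ein2-5, where 3231 of all genes fell. Over all pairs of groups 12 of 18 same-numbered pairs of libraries had r above 0.1, from −0.30 to 0.61, against 10 of 36 pairs with different numbers. For the difference of the responses a fit of only the groups compared is the fit already given, since it uses all 4. At 3 libraries a group, small changes of ATG1A are not detectable, and ATG13B rests on few reads.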
